A study of Mus musculus with 191 samples.

Results

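The 8 genes described here are 7 well-known target genes of the glucocorticoid receptor (Tsc22d3, Fkbp5, Sgk1, Ddit4, Zbtb16, Errfi1 and Klf9) and Nr3c1, the gene of the receptor itself. They were taken from a list of names that was chosen with earlier results of these data known. Counts of these genes beside shares of all genes are therefore given as description. Values were read by Ensembl identifier from 5 tables of normalized RNA sequencing values. Each table covered 1 tissue of mice, namely liver, lung, gut, bone marrow or ear skin. All 8 were present in each table, out of 21205 genes in the 5 tables together, and all 8 passed the filter on low values in each tissue. The study asked how the daily transcription of tissues differs when neutrophils are depleted or lack a clock gene.

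In bone marrow, gut, liver and lung, wild-type C57BL/6 mice received anti-Ly6G antibody (clone 1A8), directed at a surface protein of neutrophils, or control IgG. Both were given at 3 µg per g of body weight on 2 consecutive days, and tissues were taken a day later. With 3 mice per treatment at Zeitgeber time (ZT, hours from lights on) 1, 5, 9, 13, 17 and 21, there were 18 libraries of each treatment in a tissue. Blood was drawn from the cheek shortly before lungs were taken, per the labels, and mice lived in the normal facility or in cabinets whose light cycle was inverted by 12 h. The labels do not say which mice were in the cabinets, so cabinet and ZT cannot be told apart. Ear skin came from 3 genotypes, with 1 mouse per genotype and ZT at 16 ZT between 1 and 24. The 16 control libraries are labelled as C57BL/6 wild type given diphtheria toxin (DT). The 16 iDTR libraries came from Mrp8CRE; iDTR mice, in which Cre driven by the Mrp8 promoter, used for neutrophils, switches on a DT receptor, and which received DT at 10 µg per kg. The 15 Bmal1-flox libraries, without ZT 16, came from Mrp8CRE; Bmal1-flox mice, in which the same driver removes the clock gene Arntl, and which received no DT. Ages, and the strain of both Mrp8CRE lines, are not given in the sources used here. Library depth, recovered from the tables, lay between 7.68 M and 30.9 M counts.

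Glucocorticoids, chiefly corticosterone in mice, are released by the adrenal gland with a daily rhythm and during stress. They enter cells and bind the glucocorticoid receptor, which moves to the nucleus, binds DNA elements made of inverted AGAACA half-sites and raises or lowers transcription of nearby genes. Tsc22d3 (also called Gilz), Fkbp5 and Klf9 are widely used as readouts of receptor activity, and glucocorticoids in turn set daily rhythms in liver and other organs.

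The promoter sequences of 3 of the target genes, near a start of transcription, are printed below. For Sgk1 and Tsc22d3, which have several starts, the sequence printed was chosen because it holds a match. Each is 250 bases up to the base before a start, from RefSeq on GRCm38.p6, written 5′ to 3′ along the gene, with capitals for AGAACA or its reverse complement TGTTCT and for the full element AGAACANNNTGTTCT.
Sgk1, chr10:21993640-21993889, plus strand: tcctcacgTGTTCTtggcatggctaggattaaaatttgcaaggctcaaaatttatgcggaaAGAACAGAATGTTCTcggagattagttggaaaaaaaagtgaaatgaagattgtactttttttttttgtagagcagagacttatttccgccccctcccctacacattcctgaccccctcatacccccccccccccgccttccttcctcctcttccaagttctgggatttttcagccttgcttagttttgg
Tsc22d3, chrX:140600523-140600772, minus strand: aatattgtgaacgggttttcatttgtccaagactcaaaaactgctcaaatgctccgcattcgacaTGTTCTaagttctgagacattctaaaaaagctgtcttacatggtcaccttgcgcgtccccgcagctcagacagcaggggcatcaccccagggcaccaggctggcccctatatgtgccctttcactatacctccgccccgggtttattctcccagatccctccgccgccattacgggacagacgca
Ddit4, chr10:59951771-59952020, minus strand: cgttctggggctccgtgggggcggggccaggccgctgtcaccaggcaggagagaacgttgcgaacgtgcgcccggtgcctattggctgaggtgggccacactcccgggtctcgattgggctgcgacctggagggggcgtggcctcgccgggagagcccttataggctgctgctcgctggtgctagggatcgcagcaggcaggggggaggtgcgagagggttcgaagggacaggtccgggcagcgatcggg
The Sgk1 window holds the full element, with its first base at position -189 from the start. That element, searched on both strands, was found in 3 of all 32851 RefSeq promoter windows of 300 bases (0.00913%). The Tsc22d3 window holds a half-site alone at -185, a match that 19.0% of all windows hold. The Ddit4 window holds neither. Over the 14 windows of 6 members, the full element was found in 1, the Sgk1 window printed. The half-site, which is contained in the full element, was found in 4, namely 3 of Sgk1 and 1 of Tsc22d3. The other windows of both genes held neither. CACGTG, the E-box bound by clock factors, was found in 2 of the 14, the Fkbp5 window and the same Sgk1 window, and in 7.15% of all windows. These matches are letters in a window and no measurement of binding, since no binding data were analysed here.

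On GRCm38, the members that rose in bone marrow lie at chrX:140539528-140600659 on the minus strand (Tsc22d3, ENSMUSG00000031431), chr10:59949669-59951834 on the minus strand (Ddit4, ENSMUSG00000020108) and chr17:28399094-28517527 on the minus strand (Fkbp5, ENSMUSG00000024222). Errfi1 lies at chr4:150853919-150868892 and Klf9 at chr19:23141226-23168134, both on the plus strand. Sgk1 spans chr10:21882184-21999903 on the plus strand, and Zbtb16 spans chr9:48654297-48836222 on the minus strand. Values are sums over a whole gene, so its alternative starts cannot be told apart.

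Levels of the members within a tissue were set side by side per kilobase of exon (normalized value divided by exon length), as means ± SD over control libraries. Values of different tissues come from tables normalized separately. In bone marrow under IgG, Nr3c1 (17.2 ± 1.26, n = 18) and Tsc22d3 (17.0 ± 3.69) were highest and did not differ beyond their spread, and Zbtb16 was lowest at 0.877 ± 0.155. In gut, Ddit4 (37.7 ± 5.52) and Sgk1 (32.7) were highest, and the mean of Ddit4 lay within the spread of Sgk1. Errfi1 stood far above the others in liver, at 196 ± 64.3 against 16.9 ± 7.40 for Tsc22d3, the next. Tsc22d3 led in lung (77.6 ± 37.1, libraries labelled IgG) and in control skin (54.4 ± 21.3, n = 16), in each case within the spread of the gene after it. The SDs include the change with ZT.

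Differences were estimated on log2(value + 1) with limma, adjusted for ZT, with Benjamini-Hochberg adjustment over all genes of the tissue. A gene is said to rise or fall where its adjusted p was under 0.05.

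**Figure D1:**
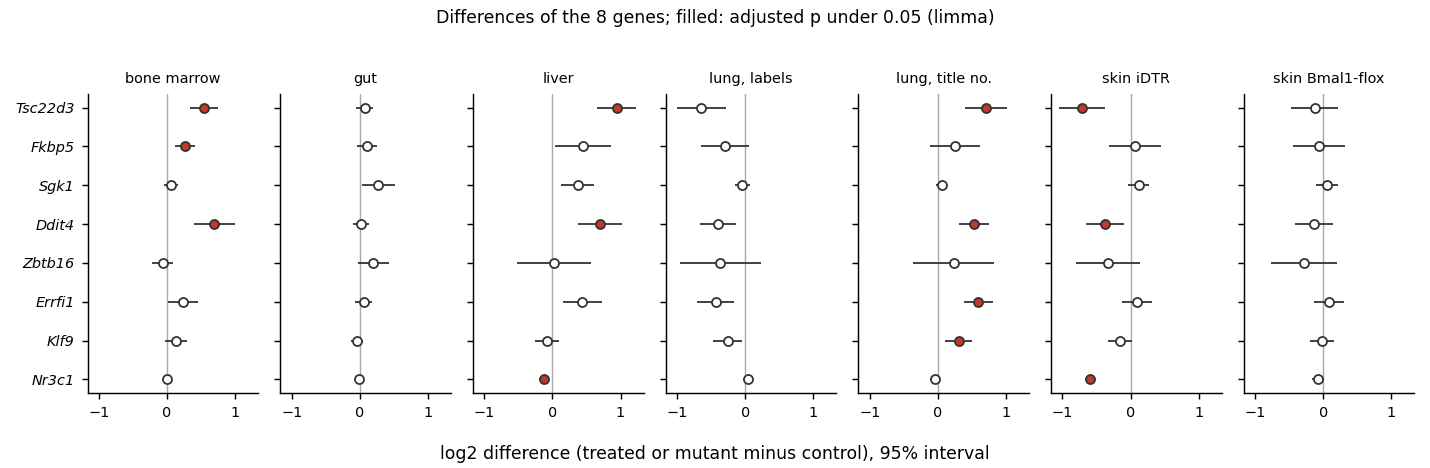
Log2 difference of each of the 8 genes in each comparison (x axis, treated or mutant minus control, with 95% interval), with lung under both readings of its sample labels. Filled points passed an adjusted p of 0.05: 3 genes in bone marrow, 3 in liver, 0 in gut, 0 in lung by labels, 4 in lung by title number, 3 in iDTR skin and 0 in Bmal1-flox skin.

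In bone marrow, 3 of the 8 genes rose under anti-Ly6G and none fell. Across all 14289 genes tested there, 9.95% rose and 7.16% fell. The median difference of the 8 was 0.19, beside -0.0045 for all genes. Tsc22d3, which encodes an anti-inflammatory leucine zipper protein, ranged from 46.6 to 98.8 (median 77.2) under IgG and from 74.5 to 189 (median 99.5) under anti-Ly6G. It rose by 0.54 on the log2 scale (SE 0.101, adjusted p = 3e-04, limma), with a higher mean at 6 of 6 ZT. The groups overlapped as wholes, while at ZT 1, 5 and 13 each anti-Ly6G library lay above each IgG library, as was the case for 10.1% of all pairs of gene and ZT. Ddit4, an inhibitor of the growth kinase complex mTORC1, ranged from 6.14 to 17.5 (median 10.8) under IgG and from 10.4 to 42.2 (median 16.1) under anti-Ly6G. Its rise was 0.69 (SE 0.150, adjusted p = 0.00128, limma). Its mean was 2.54, 2.52, 2.19 and 1.62 times that under IgG at ZT 5, 9, 13 and 17, and 1.03 and 1.05 times at ZT 1 and 21. The groups did not overlap at ZT 5, 13 and 17, and they overlapped at ZT 1, 9 and 21. Fkbp5, a co-chaperone that lowers the hormone affinity of the receptor, ranged from 39.3 to 74.0 (median 47.7) under IgG and from 43.2 to 136 (median 55.9) under anti-Ly6G. It rose by 0.26 (SE 0.0747, adjusted p = 0.0127, limma), and the groups did not overlap at ZT 1, 5 and 9. Without the libraries of ZT 1 or of ZT 5, the adjusted p of Fkbp5 passed 0.05, reaching at most 0.0646.

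The other 5 genes did not pass in bone marrow. The values were 0.24 for Errfi1, an inhibitor of the EGF receptor (adjusted p = 0.126), and 0.13 for Klf9, a transcription factor (adjusted p = 0.275). They were 0.06 for Sgk1, a kinase that controls sodium transport, -0.07 for Zbtb16, a zinc finger transcription factor, and -0.01 for Nr3c1. Without ZT 21, both Errfi1 and Klf9 passed as well, with adjusted p of 0.0416 and 0.0389. Genes typical of cell types were read in the same libraries, where 9.95% of all genes rose and 7.16% fell. Of 8 neutrophil genes, 1 rose (Ly6g, 0.16) and 1 fell (Csf3r, -0.23), and their summed level ranged from 12479 to 20324 under IgG and from 12894 to 25490 under anti-Ly6G. Of 8 genes typical of bone marrow, 4 rose, namely the granule protein genes Mpo (0.51), Elane (0.49), Ngp (0.27) and Ltf (0.27), and 2 fell, Vpreb1 (-0.42) and Hbb-bt (-0.34), with a median of 0.21 over the 8. Of 6 B cell genes 3 fell, and of 8 T and NK cell genes 1 rose (Nkg7, 0.42). The counts of 1 of 8 lie near the shares of all genes. In bulk tissue, fewer cells of a type and less RNA per cell cannot be told apart, and the part of cell makeup in the members' rise was not tested.

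In liver, Tsc22d3 and Ddit4 rose, Nr3c1 fell and the other 5 did not pass. Among the 12504 genes tested in liver, 0.776% rose and 0.624% fell. The median difference of the 8 genes was 0.40, beside 0.00081 for all genes. Tsc22d3 ranged from 27.9 to 123 (median 73.5) under IgG and from 50.1 to 274 (median 131) under anti-Ly6G. The difference was 0.94 (SE 0.139, adjusted p = 0.000446, limma), a fold of 1.92. At 5 of 6 ZT each anti-Ly6G library exceeded each IgG library, ZT 1 being the exception, against 7.13% of all pairs of gene and ZT. The ratios of means at ZT 1, 5, 9, 13, 17 and 21 were 1.71, 2.68, 2.91, 2.18, 1.45 and 1.33. Ddit4 ranged from 2.10 to 13.4 (median 6.08) under IgG and from 4.27 to 32.7 (median 8.74) under anti-Ly6G. It rose by 0.70 (SE 0.157, adjusted p = 0.0187, limma). Groups did not overlap at ZT 5, 9, 13 and 21, and at ZT 1 the means were nearly equal (ratio 0.993). The call of Ddit4 was lost without ZT 5, 9 or 13, without the time term and with voom weights, with adjusted p up to 0.291.

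**Figure D2:**
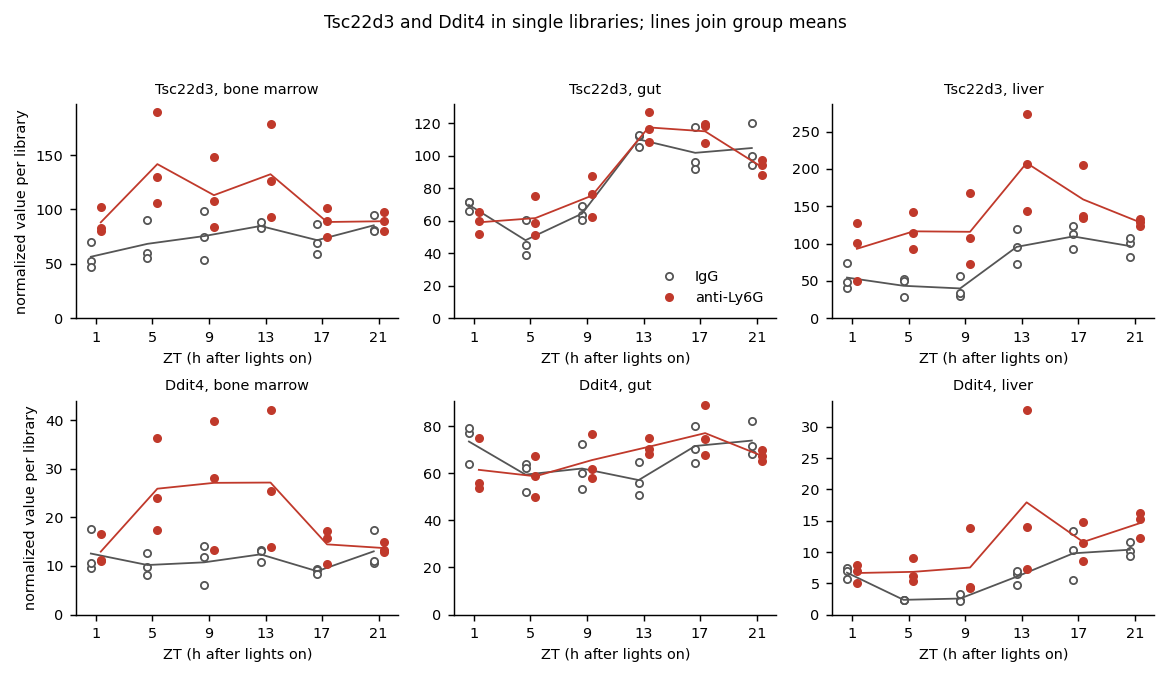
Normalized value (y axis) of Tsc22d3 and Ddit4 in each library by ZT (x axis) in bone marrow, gut and liver, open for IgG and filled for anti-Ly6G, with lines through group means of 3 libraries. In liver the filled points of Tsc22d3 lie above the open ones at 5 of 6 ZT, in bone marrow at 3 of 6, and in gut at none.

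Nr3c1 ranged from 87.2 to 130 (median 99.8) under IgG in liver and from 81.01 to 113 (median 90.9) under anti-Ly6G. Its mean was lower at 6 of 6 ZT, and the difference was -0.13 (SE 0.0334, adjusted p = 0.0456, limma), a fold of 0.916. That call held in 9 of 36 fits that left out 1 library, where the adjusted p ranged from 0.0284 to 0.0816. It held in 4 of 13 other settings and was lost with no filter, with quantile normalization, with no time term and without each of the 6 ZT in turn, with adjusted p up to 0.365. Among the genes that did not pass, Errfi1 differed by 0.44 (adjusted p = 0.123), Sgk1 by 0.37 (adjusted p = 0.133) and Fkbp5 by 0.45 (adjusted p = 0.317). Errfi1 passed without ZT 21 (adjusted p = 0.0284) and in 1 of 36 fits without a single library, that without anti-Ly6G replicate 18 (adjusted p = 0.041, limma). Sgk1 passed in 1 of 36, without anti-Ly6G replicate 1 (adjusted p = 0.0392, limma). Errfi1 ranged from 353 to 1127 (median 712) under IgG and from 474 to 1371 (median 928) under anti-Ly6G. Fkbp5 had the widest spread of the 3, with medians of 35.5 and 55.7 and maxima of 210 and 265 under IgG and anti-Ly6G. Zbtb16 (0.02) and Klf9 (-0.08) showed small differences averaged over ZT, although Zbtb16 at ZT 5 lay between 3.955 and 6.635 under IgG and between 16.9 and 34.8 under anti-Ly6G. At that ZT, 8.73% of all genes had anti-Ly6G above IgG without overlap.

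In gut, none of the 8 genes passed, 1 having an unadjusted p under 0.05 (Sgk1), and voom weights gave 0 as well. Of all 15158 genes tested there, 0.0132% passed. Tsc22d3 ranged from 38.8 to 120 (median 81.8) under IgG and from 51.2 to 127 (median 87.6) under anti-Ly6G, and differed by 0.07 (95% interval -0.05 to 0.20). Sgk1 ranged from 63.2 to 246 (median 156) and from 110 to 332 (median 176) in the same order, and differed by 0.27 (SE 0.121, adjusted p = 0.337, limma). The groups of both genes overlapped broadly.

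The lung labels are in doubt. In bone marrow, gut and liver, the numbers in the sample titles follow 1 scheme in 36 of 36 libraries, with 3 IgG and then 3 anti-Ly6G libraries per ZT in order. In lung, 0 of 36 libraries follow it for both treatment and ZT, 8 for treatment and 0 for ZT. As a time reference, Dbp, an output gene of the clock, peaked at ZT 10.1 in gut and 8.59 in liver under IgG, and in lung at 3.45 by the labels and at 8.58 by the title numbers. Of 6 neutrophil genes tested in lung, none passed between treatments by the labels, and 4 were lower under anti-Ly6G by the title numbers, among them S100a9 (-1.10, adjusted p = 0.00299) and Csf3r (-0.91). Of all genes in lung, 0% passed by the labels and 3.39% were lower by the title numbers. Counts of members that rose, fell or were rhythmic in lung are therefore given under both readings, with the labels as the main one. Other lung values use the labels where no reading is named.

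By the labels, none of the 8 genes passed in lung, with 4 at an unadjusted p under 0.05, voom weights also gave 0, and 0 of 15641 genes passed (0%). The median difference of the 8 was -0.33, beside -0.00021 for all genes. Tsc22d3 ranged from 151 to 769 (median 302) in the libraries labelled IgG and from 93.1 to 434 (median 206) in those labelled anti-Ly6G, a difference of -0.64 (adjusted p = 0.355, limma). By the title numbers, 4 genes rose and none fell, with 3.48% of all genes rising and 3.39% falling, and the median of the 8 was 0.28. Tsc22d3 then ranged from 93.1 to 396 (median 188) under IgG and from 151 to 769 (median 298) under anti-Ly6G, and rose by 0.71 (SE 0.150, adjusted p = 0.00379, limma). Errfi1 ranged from 94.9 to 224 (median 137) and from 145 to 369 (median 180), and rose by 0.60 (adjusted p = 0.000604), without overlap at 5 of 6 ZT, against 6.63% of all pairs of gene and ZT. Ddit4 rose by 0.53 (adjusted p = 0.00347) and Klf9 by 0.31 (adjusted p = 0.0467). Fkbp5 (0.25), Zbtb16 (0.23), Sgk1 (0.05) and Nr3c1 (-0.04) did not pass. The direction of the 4 genes thus flips with the reading: by the labels Errfi1 differed by -0.44, Ddit4 by -0.40 and Klf9 by -0.26.

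**Figure D3:**
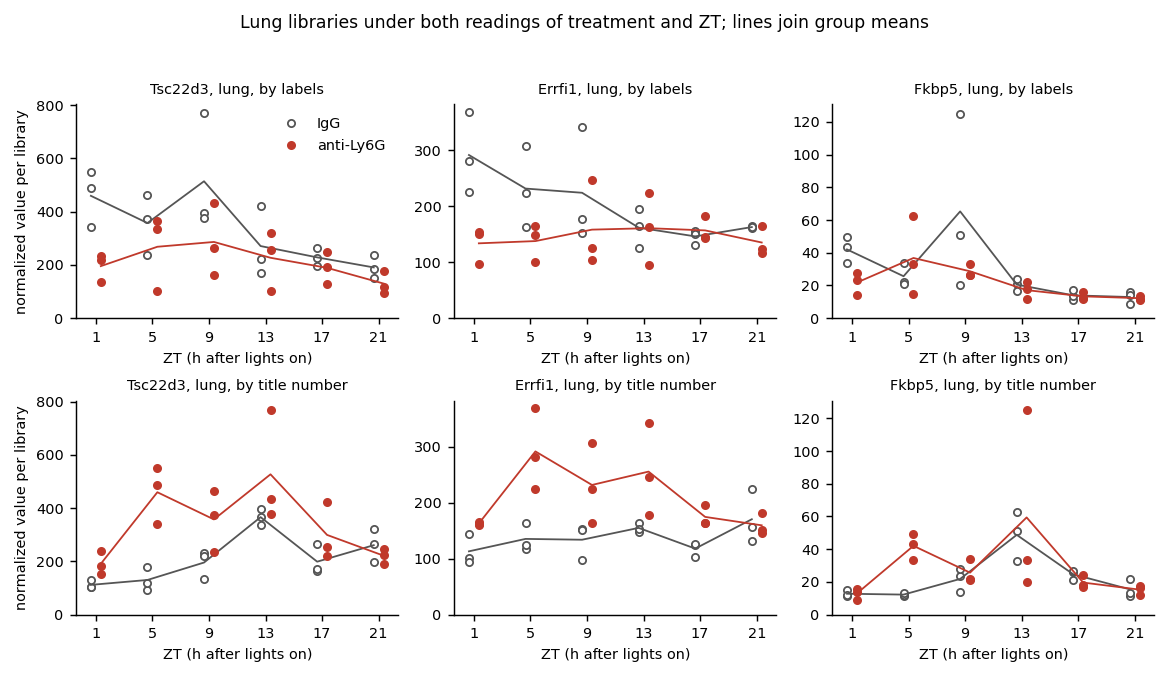
Normalized value (y axis) of Tsc22d3, Errfi1 and Fkbp5 in each lung library by ZT (x axis), with treatment and ZT taken from the labels (top) or from the title numbers (bottom), open for IgG and filled for anti-Ly6G, and lines through group means. The same 36 values per gene appear in both rows, and anti-Ly6G lies below IgG for Tsc22d3 at 6 of 6 ZT means in the top row and above it at 5 of 6 in the bottom row.

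Tests at single ZT, with 3 libraries per treatment, passed for 2 of 192 combinations of member, tissue and ZT by the labels, beside 0.445% of those of all genes. Tsc22d3 rose at ZT 5 in bone marrow and in liver, where 0.231% and 0.224% of all genes rose. In bone marrow, the 3 values at ZT 5 lay between 55.1 and 89.9 under IgG and between 106 and 189 under anti-Ly6G (log2 difference 1.03, SE 0.231, adjusted p = 0.0356, limma). In liver they lay between 27.9 and 52.6 and between 92.5 and 142 (1.43, SE 0.315, adjusted p = 0.0448, limma). Fkbp5 in liver at ZT 5 lay between 14.3 and 24.1 under IgG and between 38.2 and 65.2 under anti-Ly6G, without overlap and without passing the test. Of all genes in liver, 8.73% had anti-Ly6G above IgG without overlap at ZT 5. By the title numbers, 6 of the 8 genes passed in lung at ZT 5, all higher, where 0.767% of all genes rose. Zbtb16 was highest in difference, with 11.03 to 14.6 under IgG and 75.4 to 85.7 under anti-Ly6G (2.52, adjusted p = 0.0254, limma). Tsc22d3 differed there by 1.84, Fkbp5 by 1.69, Errfi1 by 1.09, Klf9 by 0.99 and Ddit4 by 0.99. By the labels, no member passed at any ZT in lung.

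Averaged over the light phase (ZT 1, 5 and 9), Tsc22d3 (0.75, adjusted p = 0.00118), Ddit4 (0.83, adjusted p = 0.0104) and Errfi1 (0.50, adjusted p = 0.0285) rose in bone marrow, where 3.64% of all genes did. In liver, Tsc22d3 rose (1.21, adjusted p = 0.00158), against 0.392% of all genes. In lung by the labels, Errfi1 (-0.79) and Ddit4 (-0.71) fell, against 0.588% of all genes, and by the title numbers Tsc22d3, Errfi1, Ddit4 and Klf9 rose, against 2.34%. Over the dark phase (ZT 13, 17 and 21), no member passed in any tissue under either reading of lung, where 1.95% of all tests by the labels passed. By tissue, the share of all genes was 7.61% in bone marrow, 0% in gut, 0.28% in liver and 0.00639% in lung. At an unadjusted p under 0.05 there were 2 members in bone marrow, 3 in liver and 0 in gut and in lung by the labels, and voom weights gave 0 in each. The difference between phases was itself tested and did not pass for any member, beside 0.0573% over all genes. Over all genes it passed for 1 in bone marrow, 1 in gut, 0 in liver and 31 in lung by the labels. Of 32 such tests of members by the labels, 8 had an unadjusted p under 0.05 and the smallest adjusted p was 0.238 (limma). At that unadjusted threshold there were 684 of 14289 genes in bone marrow and 930 of 15158 in gut. Liver had 1106 of 12504 and lung 1815 of 15641. The difference for Tsc22d3, dark minus light, was -0.44 in bone marrow (adjusted p = 0.974) and -0.53 in liver (adjusted p = 0.561). An F test of treatment by ZT over all 6 ZT, added after seeing the data, also gave 0 of 32, beside 0.311% over all genes. Over all genes it passed for 3 in bone marrow, 0 in gut, 3 in liver and 173 in lung by the labels. Of the 32 member tests, 8 had an unadjusted p under 0.05, a share that was not counted over all genes. A larger response in light than in dark was therefore not shown.

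Daily rhythms were tested as a 24 h wave in each treatment. In liver under IgG, 6 of the 8 genes were rhythmic, beside 42.9% of all genes, and 4 under anti-Ly6G, beside 34.7%. Fkbp5 had the largest amplitude, with a trough-to-peak fold of 5.68 under IgG and 3.13 under anti-Ly6G, peaking at ZT 14.3 ± 0.630 (SE) and 12.4 ± 0.958. Tsc22d3 peaked at ZT 17.7 ± 0.612 and 14.6 ± 1.05, with folds of 3.11 and 1.94. Ddit4 peaked at 19.2 and 16.9, both in the dark, and Klf9 in the light, at 4.80 and 4.21. Nr3c1 (peak 8.62, fold 1.24) and Zbtb16 (peak 13.1) passed under IgG alone, and a difference between treatments did not pass for either.

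In gut, 4 genes were rhythmic under IgG, beside 33.6% of all genes, and 3 under anti-Ly6G, beside 24.6%. Tsc22d3 (fold 2.25, peak ZT 17.1 ± 0.411 under IgG, and 2.15, 15.6 ± 0.435 under anti-Ly6G) and Klf9 (peaks 7.62 and 7.81) passed in both. Ddit4 passed in both with peaks at 21.6 and 15.9, and Fkbp5 under IgG alone, at 12.7. In gut and in liver alike, the peak of Klf9 fell in the light and that of Tsc22d3 in the dark. In bone marrow no member passed in either treatment, with 1 at an unadjusted p under 0.05 under IgG and 5 under anti-Ly6G, and 1.62% and 0.406% of all genes were rhythmic.

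**Figure D4:**
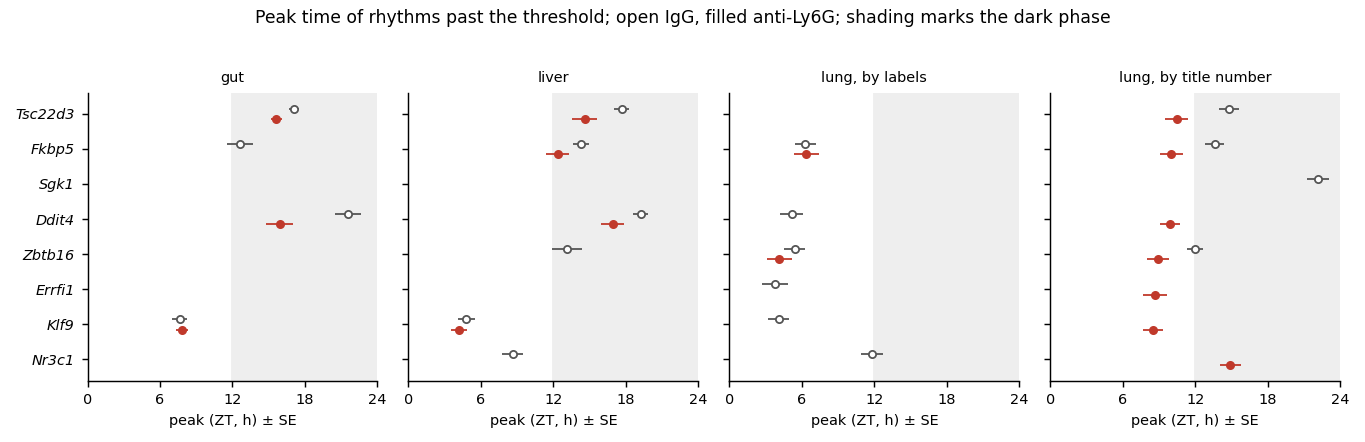
Peak time (x axis, ZT, with SE) of the members' rhythms that passed an adjusted p of 0.05, in gut, liver and lung under both readings, open for IgG and filled for anti-Ly6G, with the dark phase shaded. In liver, Klf9 peaks near ZT 4 to 5 and Tsc22d3, Fkbp5 and Ddit4 between 12.4 and 19.2, and lung peaks depend on the reading.

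In lung, 6 genes were rhythmic in libraries labelled IgG and 2 in those labelled anti-Ly6G, beside 11.2% and 12.7% of all genes. With voom weights these counts were 5 and 0. By the title numbers, 4 and 7 were, beside 23.6% and 13.2%. Fkbp5 peaked at ZT 6.30 and 6.37 by the labels and at 13.6 and 10.0 by the title numbers, in IgG and anti-Ly6G. In skin, Fkbp5 (peak 13.0, fold 2.67) and Klf9 (peak 10.3, fold 1.57) passed in iDTR mice, beside 10.9% of all genes. No member passed in control or Bmal1-flox skin, where 0.383% and 0.326% of all genes did. The folds there were 2.50 and 2.61 for Fkbp5, near that in iDTR skin, and 1.43 and 1.30 for Klf9. Of the members, 3 had an unadjusted p under 0.05 in control and 4 in Bmal1-flox skin. A difference in rhythm between groups did not pass for any member in any tissue, beside 0.0369% over all genes. Over all genes it passed for 1 in bone marrow, 1 in liver, 8 in lung by the labels and 23 in iDTR skin. It passed for 0 in gut and in Bmal1-flox skin. Of 48 member tests by the labels, 10 had an unadjusted p under 0.05 and the smallest adjusted p was 0.286 (limma). At that unadjusted threshold there were 553 of 14289 genes in bone marrow, 984 of 15158 in gut and 1149 of 12504 in liver. Lung had 1717 of 15641, iDTR skin 2430 of 15946 and Bmal1-flox skin 563 of 15946.

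In skin, the label of the control group is in doubt. Gt(ROSA)26Sor, the host transcript of the locus at which iDTR is inserted, ranged from 0.225 to 1.83 in control and from 0.242 to 1.53 in iDTR, but from 21.0 to 30.2 in Bmal1-flox skin. The control libraries are therefore given as labelled, and what they carry was not tested. Against control, 3 of the 8 genes fell in iDTR skin and none rose, in a comparison in which 32.4% of all 15946 genes fell and 30.6% rose. The median of the 8 was -0.24, beside -0.02 for all genes.

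Nr3c1, which is expressed in nearly all cell types, ranged from 175 to 217 (median 191) in control skin, from 110 to 149 (median 127) in iDTR skin and from 160 to 198 (median 185) in Bmal1-flox skin. All 16 iDTR libraries lay below all 16 control and all 15 Bmal1-flox libraries, and 3.62% of all genes had iDTR wholly below control. The difference from control was -0.59 (SE 0.0385, adjusted p = 1.98e-18, limma), a fold of 0.664. Tsc22d3 ranged from 104 to 421 (median 221) in control, from 67.5 to 295 (median 109) in iDTR and from 109 to 415 (median 179) in Bmal1-flox skin. It fell by 0.71 in iDTR skin (SE 0.170, adjusted p = 0.000289, limma), with groups that overlapped. The 2 highest control values were 419 at ZT 9 and 421 at ZT 15, and ZT 9 stood apart from its neighbours at ZT 7 (155) and ZT 10 (216). Ddit4 ranged from 35.8 to 93.1 in control and from 24.8 to 78.8 in iDTR skin, and fell by 0.37 (SE 0.139, adjusted p = 0.0173, limma).

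**Figure D5:**
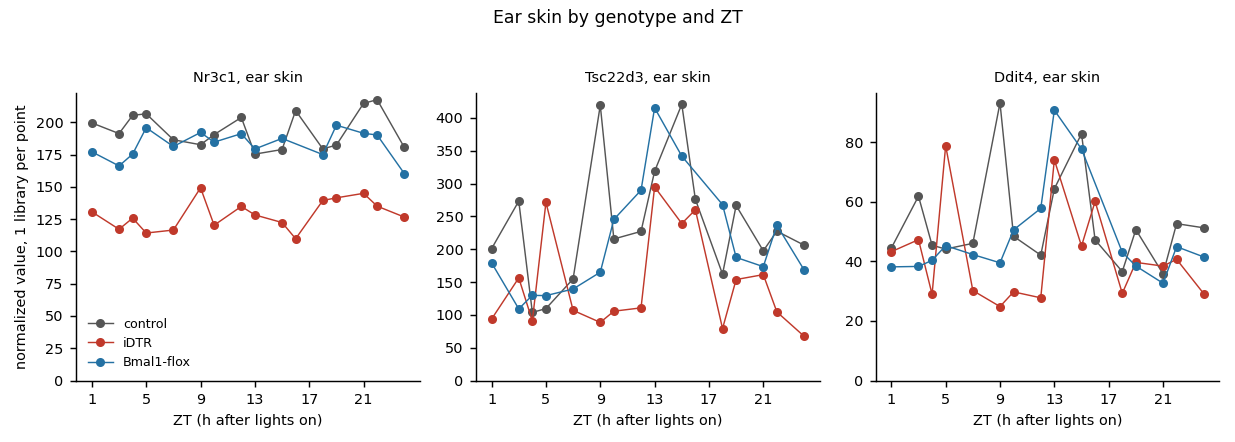
Normalized value (y axis) of Nr3c1, Tsc22d3 and Ddit4 in ear skin by ZT (x axis), 1 library per point, for control, iDTR and Bmal1-flox mice. For Nr3c1 the iDTR points lie between 110 and 149, below every control point (175 to 217), while the groups of Tsc22d3 and Ddit4 overlap.

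Fkbp5 (0.07), Sgk1 (0.12), Errfi1 (0.09), Klf9 (-0.16) and Zbtb16 (-0.33) did not pass in iDTR skin. Genes typical of cell types also differed, in a comparison where 30.6% of all genes rose and 32.4% fell. All 6 adipocyte genes tested and all 6 skeletal muscle genes were lower in iDTR than in control skin, and 4 of 5 neutrophil genes were higher, with 1 lower. Of 6 T and NK cell genes tested, 2 rose and 4 fell, and of 6 skin genes, 3 rose and 1 fell. Cell number and RNA per cell cannot be told apart here either. The summed adipocyte level ranged from 347 to 543 (median 458) in control and from 136 to 495 (median 284) in iDTR skin, and the muscle level from 2503 to 6628 and from 1715 to 4107. The part of these cells in the fall of Nr3c1, Tsc22d3 and Ddit4 was not tested. In Bmal1-flox skin none of the 8 passed, with 1 at an unadjusted p under 0.05, voom weights gave 0, and 5.63% of all genes passed. The values were -0.08 for Nr3c1 (adjusted p = 0.248), -0.12 for Tsc22d3 and -0.14 for Ddit4. Control mice received DT and Bmal1-flox mice did not, so genotype and DT cannot be told apart in any comparison of these groups.

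Other genes of the pathway, from lists made with earlier results of these data known, moved as follows. Of 28 further genes known to be induced by glucocorticoids, 22 were tested in bone marrow, of which 3 rose (Per1, 0.72; Anxa1, 0.27; Nfkbia, 0.21) and 3 fell (Dusp1, -0.46; Mt2, -0.22; Rgs2, -0.19), where 9.95% of all genes rose and 7.16% fell. In liver, 4 of 23 rose and none fell, namely Mt2 (1.33), Mt1 (1.21), Per1 (0.93) and Cdkn1a (0.62), the first a pair of metallothioneins that bind metals, where 0.776% of all genes rose. In gut none of 24 passed, and in lung none of 25 by the labels, against 8 that rose and 1 that fell by the title numbers (Per1, 0.85; Fam107a, 0.66), where 3.48% of all genes rose and 3.39% fell. In iDTR skin, 9 of 25 rose, with Angptl4 at 1.46 and Mt2 at 1.35, and 11 fell, with Pck1 at -1.32 and Glul at -0.96. Of all genes there 30.6% rose and 32.4% fell, so the count that rose lies near the background. In Bmal1-flox skin 1 of 25 rose, Anxa1 (0.16), where 5.63% of all genes passed. Median differences of this list were 0.05 in bone marrow, 0.27 in liver, -0.12 in lung by the labels, 0.13 by the title numbers and -0.04 in iDTR skin. Per1, a clock gene with a receptor element of its own, rose in bone marrow, liver and iDTR skin and in lung by the title numbers.

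Of 15 genes of the receptor's machinery (chaperones, cofactors and hormone-converting enzymes), 13 were tested in bone marrow. Among them Hsd11b1, the enzyme that makes active corticosterone from its inert form, rose by 0.38 (adjusted p = 2.103e-06, limma) and Hsp90aa1 fell by 0.19. None of 14 passed in gut, liver or lung by the labels, and Hsd11b1 rose by 0.12 in lung by the title numbers. In iDTR skin 7 of 13 rose, with Hsp90aa1 at 0.94, and 3 fell, with the mineralocorticoid receptor gene Nr3c2 at -0.74, beside the same 30.6% and 32.4% of all genes. Of 10 inflammatory genes that glucocorticoids repress, 6 were tested in bone marrow, of which Il1b (-1.61), Ptgs2 (-1.17) and Cxcl2 (-0.92) fell and Tnf rose (0.28). Of all genes there 7.16% fell and 9.95% rose. In iDTR skin, 7 of 7 rose, from 0.40 for Mmp9 to 3.54 for Cxcl1, with a median of 1.78, in a comparison where 30.6% of all genes rose. In Bmal1-flox skin 1 of 7 rose (Ptgs2, 0.90), with a median of 0.17, where 2.41% of all genes rose. None of 13 machinery genes passed there. Of the repressed genes, 0 of 2 passed in liver and in gut, and 0 of 4 in lung by the labels. By the title numbers 2 of 4 fell in lung (Il1b, -0.86, and Mmp9, -0.60), where 3.39% of all genes fell.

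Smaller lists followed single members. Of 7 sodium transport genes that act with Sgk1, 1 of 4 tested fell in bone marrow (Atp1b1, -0.31), 1 of 6 rose in lung by the title numbers (Atp1b1, 0.23), and in iDTR skin 4 of 7 rose and 3 fell. In Bmal1-flox skin 1 of 7 rose, Scnn1b (0.52), a subunit of the epithelial sodium channel. Of 8 genes of mTORC1 and muscle wasting grouped with Ddit4, Klf15 alone passed in liver (0.25, of 7 tested), and none of 7 did in bone marrow. Of 9 genes of the EGF receptor system grouped with Errfi1, 1 of 5 rose and 1 fell in bone marrow, and in iDTR skin 5 of 9 rose, among them the ligands Areg (1.20) and Tgfa (0.44). In Bmal1-flox skin none of the 8 genes grouped with Ddit4 and none of the 9 grouped with Errfi1 passed. In lung by the title numbers, 1 of 8 tested genes grouped with Ddit4 rose. Of 8 tested genes grouped with Errfi1, 1 rose and 2 fell there. Of all genes, 30.6% were higher and 32.4% lower in iDTR skin, and 9.95% and 7.16% in bone marrow. In liver 0.776% rose, in lung by the title numbers 3.48% rose and 3.39% fell, and in Bmal1-flox skin 2.41% rose. These lists are too short for their counts to be read as set apart from all genes.

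Genes outside the 8 whose values were most like those of Tsc22d3 were named by Pearson's r over all libraries of a tissue. These correlations share libraries, ZT and treatment and are given as description. Over 36 libraries of bone marrow, Per1 (r = 0.913), Nfkbia (0.852), Sik1 (0.803) and Zfp36l2 (0.779) came first among 14289 genes. In liver the first were Tat (0.798), which encodes tyrosine aminotransferase, Tcim (0.782), Nrbp2 (0.776) and Acnat2 (0.764). In gut Ldha (0.920), Pgk1 (0.906) and Vapa (0.869) were among the first, and in lung the first were AA986860 (0.957), Klf15 (0.933), Fam107a (0.916) and Atp1b1 (0.894). In skin, over 47 libraries, Glul (0.833) and Fam107a (0.788) led. Among the members themselves, Ddit4 was most like Tsc22d3 in bone marrow (0.886), liver (0.839), lung (0.884) and skin (0.838), and Sgk1 was in gut (0.654). Klf9 ran opposite to Tsc22d3 in gut (-0.444) and liver (-0.453) and with it in lung (0.842) and skin (0.651). For Fkbp5 the most alike were Crispld2 (0.901) in bone marrow, Tesk1 (0.799) in gut, Gm43305 (0.907) in liver, Map3k6 (0.936) in lung and Jade2 (0.812) in skin.

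Title number 22 was highest most often across tissues, and it was picked from these same values. No share over all genes was counted for it. The library numbered 22, labelled anti-Ly6G at ZT 13 in bone marrow, gut and liver and IgG at ZT 9 in lung, had the highest of 36 values in 14 of 32 combinations of member and antibody tissue. It was highest for Fkbp5 in 4 of 4 tissues, at 136 in bone marrow, 176 in gut, 265 in liver and 125 in lung. The next highest Fkbp5 values in those tissues were 74.0, 153, 210 and 62.5. Number 22 was highest in 3 of 4 tissues for Tsc22d3, Ddit4 and Zbtb16, in 1 for Sgk1, and in none for Errfi1, Klf9 or Nr3c1. Other numbers were highest too. Number 12 was highest for Errfi1 and Klf9 in liver and lung, Tsc22d3 and Sgk1 in bone marrow, and Zbtb16 in gut. The labels do not say that equal numbers in different tissues are the same mouse. Leaving out any single library, number 22 included, lost no rise of Tsc22d3, Ddit4 or Fkbp5 in bone marrow and none of Tsc22d3 or Ddit4 in liver.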

How the data were processed

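The authors deposited 1 table per tissue, with 191 libraries in all and a normalized signal per gene on a linear scale. Per the labels' protocols, RNA was sequenced as single reads with adapters removed by cutadapt 1.7.1, mapped to the GRCm38 transcriptome (Ensembl build 84) and quantified with RSEM and Kallisto. The submitters' processing notes name CASAVA 1.8, RSEM and limma 3.46. How the signal was normalized is not given in the sources used here. Every value came out as an expected count with at most 2 decimals, plus 0.5, over a scaled library size, and between 29.7% and 44.5% of recovered counts were whole, so no count test was the main one.

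Values were taken as log2(value + 1) and genes with a mean of at least 1 were fitted with limma 3.58.1 in R 4.3.3, with a mean-variance trend. Antibody comparisons had a factor for ZT, and skin genotype was adjusted for a 24 h wave. Fold changes are on the log2(value + 1) scale, which understates low genes. The models were tested on simulated data. Gut libraries with equal replicate numbers in their titles had a median correlation of 0.0305, and the main fit used no pairing. In skin a title number marks the ZT. All p-values are two-sided. Alternatives were pseudocounts of 0.1 and 5, other filters, quantile normalization, voom weights, no time term, a replicate block, and leaving out single libraries or ZT.

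The members and all lists were chosen with earlier results of these data known. All 8 members were named in every tissue. From other lists at most 6 genes past the threshold were named per comparison. The 4 most alike genes were ranked by r. Some genes of these lists and ranks are not reported here.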

Additional observations from a re-analysis of the deposited data

How the results depend on the processing

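The 3 calls in bone marrow became 5 without ZT 21 and 2 without ZT 1 or ZT 5, and held in number in all fits without 1 library (3 to 3). The 3 in liver became 1 with no time term and 1 without ZT 5, ZT 9 or ZT 13. They became 2 with no filter, with quantile normalization, with voom weights and without ZT 1 or ZT 17, and ranged from 2 to 3 without single libraries. In iDTR skin, 3 were called in all alternatives, including the replicate block. In gut and Bmal1-flox skin, 0 were called in all, including the replicate block (0). Of 18 gut pairs with equal replicate numbers in their titles, 6 had correlated deviations above 0.1 (median r 0.0305). Of 36 other pairs, 6 did (median r -0.0325). Deviations were taken from the mean of each treatment and ZT, which ties both kinds of pair together. Gut was also 0 without title numbers 4 and 24, the libraries with the highest Svs5 and Prss2, a choice made after seeing the data. Lung read by title number gave 4 calls instead of 0 and reversed Tsc22d3 (0.71), Errfi1 (0.60), Ddit4 (0.53) and Klf9 (0.31). The 2 readings share the treatment of 8 of 36 libraries, which makes such reversals likely for any gene. Reading by title number also raised single-ZT calls from 2 to 8. Single-ZT calls ranged from 1 to 4 without single libraries, calls by phase from 4 to 8, and rhythmic members from 25 to 31, beside 27. Under the other 8 alternatives the rhythmic members numbered 24 (voom weights) to 30 (lung by title number). No alternative gave a member with a differential rhythm or a difference between phases. Of 2472 recomputed member effects, 38 changed sign without being called in either fit. The cause of these changes was not tested. With 3 libraries per treatment and ZT, precision at single ZT is limited, and the number of skin libraries, 1 per ZT and genotype, limits rhythms there.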
